A study of Mus musculus with 2 samples.

Results

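The miR-130/miR-301 and miR-148/miR-152 families are 2 groups of microRNAs (miRNAs) whose seeds are the same run of 6 bases read in frames 1 base apart. Their 7 genes were taken by name from the 1973 miRNA genes counted in embryonic mouse liver: Mir130a, Mir130b, Mir301 (also called Mir301a) and Mir301b in the first family, and Mir148a, Mir148b and Mir152 in the second. All 7 were found and all 7 reached 10 counts per 1000000 in both libraries. The study sequenced RNA shorter than 30 bases from whole livers of B6NCrl mice at embryonic day 12.5, males and females pooled, healthy and with no treatment named. There is 1 group with 2 biological replicates, pools of 120 embryos (replicate 1) and 88 embryos (replicate 2). Nothing in the labels ties the pools to separate litters, and both carry the same donor identifier, so the spread between them may be in part technical.

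A miRNA guides an Argonaute protein to messenger RNAs that pair with its seed, bases 2 to 8 from its 5′ end, and so lowers their translation and stability. MiRNAs that share a seed can act on many of the same messages, whichever locus they come from. The miR-130/miR-301 family is known from blood-forming and endothelial cells and from proliferating tissue. Of the miR-148/miR-152 family, miR-148a is an abundant miRNA of adult liver, and the family is known to repress the DNA methyltransferase gene Dnmt1.

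The mature 3p arms are shown first, because they show what each family shares and where its members part. Sequences are from RefSeq on GRCm38.p6, in the 5′ to 3′ direction, with the seed in capitals.
miR-130a-3p: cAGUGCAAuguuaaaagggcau
miR-130b-3p: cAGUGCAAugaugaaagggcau
miR-301a-3p: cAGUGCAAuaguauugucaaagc
miR-148a-3p: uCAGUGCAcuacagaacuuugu
miR-148b-3p: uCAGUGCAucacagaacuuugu
miR-152-3p: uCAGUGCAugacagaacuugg
Every arm of the first family shown here has the seed AGUGCAA, and every arm of the second has CAGUGCA. The seeds have the 6 bases AGUGCA in common, and the miR-148/miR-152 arms carry 1 more base before them.

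Mir301b, the fourth gene of the first family, lies beside Mir130b, and both hairpins are given with the 7 bases of the family seed in capitals, since they are the only members that lie within 1 intron.
Mir301b hairpin: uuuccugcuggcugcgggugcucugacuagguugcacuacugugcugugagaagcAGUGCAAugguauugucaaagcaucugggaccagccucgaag
Mir130b hairpin: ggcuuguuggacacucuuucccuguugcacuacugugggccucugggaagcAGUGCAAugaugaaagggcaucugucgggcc
The seed occurs once in each hairpin, from base 56 of 97 in Mir301b and from base 52 of 82 in Mir130b.

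Within a family the 3p arms differed outside the seed. Positions are counted from 1 at the 5′ end. From miR-130a-3p to miR-130b-3p there were 2 substitutions over 22 bases, U11A and A13G, whereas miR-301a-3p differed from miR-130a-3p at 10 of 22 positions, the first being G10A. From miR-148a-3p to miR-148b-3p there were also 2, C9U and U10C, and from miR-148b-3p to miR-152-3p there were 2 over the 21 bases compared, C10G and U20G. The arms compared here can therefore be told apart by read sequence, although their seeds cannot. Mir301b has no 3p arm among the mature sequences used. Read from the base before its seed, its hairpin differs from miR-301a-3p at position 10 only. Reads of Mir301 and Mir301b may thus differ by 1 base.

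The 5p arms do not all share a seed within a family. These 3 are shown because 2 of them have a seed in common and the last has another.
miR-148a-5p: aAAGUUCUgagacacuccgacu
miR-148b-5p: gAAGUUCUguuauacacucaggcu
miR-152-5p: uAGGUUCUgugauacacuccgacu
The 5p arms of Mir148a and Mir148b had the seed AAGUUCU, and that of Mir152 had AGGUUCU. In the other family the 5p arms of Mir301 and Mir301b had the seed CUCUGAC, that of Mir130a had CUCUUUU and that of Mir130b had CUCUUUC. The deposited counts are per gene and join both arms, so no value below belongs to 1 arm.

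Reads that align to several places were left out of the deposited gene counts, so the uniqueness of each member bears on its level. Against 2237 other annotated miRNA hairpins of mouse, the longest run of bases a member's hairpin shared was 17, between Mir130a and Mir6389. The other longest runs were 16 for Mir130b (with Mir6368) and for Mir301 and Mir301b (with each other), 15 for Mir148a and Mir148b (with each other) and 12 for Mir152 (with Mir148a). Among the 3p arms shown, the longest shared run was 15 of 22 bases, again between Mir130a and Mir6389. No member shared an unbroken run of 20 bases with another annotated miRNA gene. Matches with a mismatch were not searched, and the mismatches allowed in the alignment are not known. These runs therefore cannot show that reads align uniquely, least of all for Mir301 and Mir301b, whose 3p sequences are near-identical. Places outside annotated miRNA genes were not searched.

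The 7 members lie at 6 places on 5 chromosomes, given here in mm10 coordinates of GENCODE M21. Mir130a (ENSMUSG00000065484.1) lies on chromosome 2, 84741115 to 84741178, minus strand, and Mir148a (ENSMUSG00000065505.1) on chromosome 6, 51269812 to 51269910, minus strand. Neither of these 2 genes overlaps another annotated gene on either strand. The next annotated gene to Mir130a on the same strand was the protein-coding gene Gm19426, 990 bases away. The next one to Mir148a was the long noncoding RNA gene Gm32479, 13621 bases away.

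The other 5 members lie in the first intron of a protein-coding gene, on its own strand. Mir301 (ENSMUSG00000065589.1; chromosome 11, 87113004 to 87113089, plus strand) lies in Ska2, which encodes a spindle and kinetochore protein. Mir130b (ENSMUSG00000065572.1; chromosome 16, 17124061 to 17124142) and Mir301b (ENSMUSG00000076288.1; 17124400 to 17124496) lie 257 bases apart in 2610318N02Rik, both on the minus strand, with Mir301b first in the direction of transcription. Mir148b (ENSMUSG00000065560.1; chromosome 15, 103285125 to 103285221, plus strand) lies in Copz1, and Mir152 (ENSMUSG00000065515.1; chromosome 11, 96850393 to 96850465, plus strand) lies in Copz2. The RNA levels of these host genes are not measured in libraries of short RNA.

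Mir148b and Mir152 thus sit at matching places in a pair of related genes, since Copz1 and Copz2 encode the zeta subunits of coatomer, the coat of transport vesicles between Golgi and endoplasmic reticulum. The transcripts Copz1-201 and Copz2-201 each have 9 exons, and the 7 exons from 2 to 8 have equal lengths in both. The intron lengths were not alike. Intron 1 of Copz1-201 spans 16159 bases, with Mir148b starting 12215 bases from the transcript start, and intron 1 of Copz2-201 spans 676 bases, with Mir152 starting 517 bases from the transcript start.

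**Figure D1:**
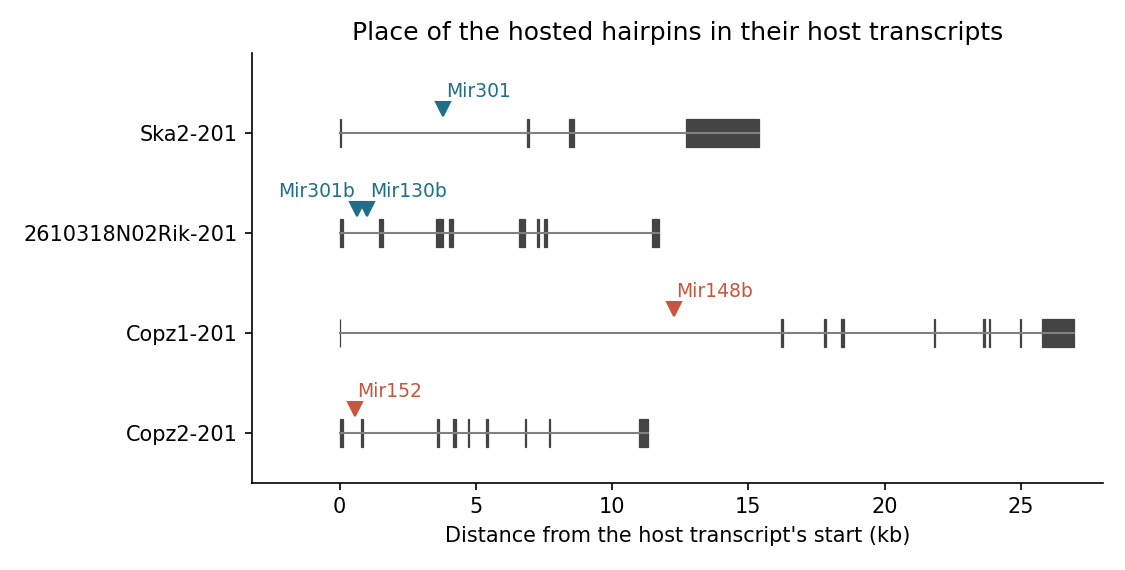
Place of the 5 hosted hairpins (triangles; blue, miR-130/miR-301; red, miR-148/miR-152) in 1 transcript of each host gene, with exons as boxes and the distance from the transcript's start in kb on the horizontal axis. All 5 lie between exons 1 and 2, and Mir301b and Mir130b share an intron.

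Levels are sense-strand reads per 1000000 of the library that fell on the sense strand of a miRNA gene (counts per 1000000, or CPM), from totals of 3447858 counts in replicate 1 and 3534816 in replicate 2, so that a gene without counts (read as 3 or fewer) may have up to 0.870 and 0.849 CPM. A read covers a whole mature miRNA and all 3p arms shown are 21 to 23 bases long, so levels were not divided by length. The marker miRNAs of liver and blood were present, with summed levels of 62737 and 48904 CPM for hepatocytes (Mir122 and Mir192) and of 16926 and 37430 CPM for red cells (Mir451a, Mir144 and Mir486) in replicates 1 and 2. Of the 5 neuronal miRNA genes measured, 4 had 0 counts in both libraries, and their sum was at most 1.74 CPM, though these genes have near-identical copies whose shared reads were not counted. Summed markers were lower in replicate 2 for hepatocytes, leukocytes and epithelium and higher for red cells, mesenchyme and muscle. The endothelial marker Mir126a had 68816 and 68165 CPM. The leukocyte sum was carried by Mir223, with 6929 and 5584 CPM, while Mir155 had 239 and 230 CPM and Mir142 was not among the genes counted. The red cell sum was carried by Mir451a, with 12422 and 32496 CPM, while Mir486 had 1204 and 892 CPM, and the hepatocyte sum was carried by Mir122, while Mir192 had 1825 and 1777 CPM. Of the 5 muscle genes measured, 3 had 0 counts in both libraries, and Mir206 and Mir208b made up the sum. Those 3, Mir1a-1, Mir133a-1 and Mir133a-2, also have copies whose shared reads were not counted, so 0 need not mean absence. In the mesenchyme list Mir143, Mir145a and Mir214 were higher in replicate 2, while Mir199a-1 had 6.67 and 3.11 CPM. Mir199a-1 has the same limit, and its copy Mir199a-2, outside the list, had 40.6 and 51.5 CPM. The part of these markers in the differences between the libraries given below was not tested. In whole tissue, fewer cells of a type and less RNA per cell cannot be told apart.

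Mir130a was the highest of the members, with 69483 counts or 20153 CPM in replicate 1 and 76477 counts or 21635 CPM in replicate 2. Its mean of 20894 ± 1049 CPM (SD, n = 2) was 2.09% of all miRNA gene counts and placed it 13 among the 1973 genes. Mir20a at 21484 ± 3445 CPM and Mir431 at 19822 ± 385 CPM stood next to it, and its distance to Mir20a was smaller than the SD of either. Mir130a is known to act in megakaryocytes and endothelial cells.

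Mir130b reached 6611 CPM in replicate 1 and 7313 CPM in replicate 2, from 22793 and 25850 counts. The mean was 6962 ± 497 CPM (SD, n = 2), rank 39, between Mir541 at 7646 CPM and Mir151 at 6690 CPM. Mir301, the Ska2 intron gene, had 984 CPM in replicate 1 and 975 CPM in replicate 2, with a mean of 979 ± 6.51 CPM (SD, n = 2) and rank 106, between Mir28a at 1011 CPM and Mir542 at 966 CPM. Both libraries put these genes well apart, and for Mir301 the libraries lay within each other's 95% counting intervals of 951 to 1017 and 942 to 1008 CPM.

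Mir301b was the lowest member of its family and of all 7, with 340 counts or 98.6 CPM in replicate 1 and 325 counts or 91.9 CPM in replicate 2. Its mean was 95.3 ± 4.72 CPM (SD, n = 2), rank 218, between Mir30c-1 at 95.3 CPM and Mir141 at 90.0 CPM. Mir301b thus stood far below Mir130b, although both lie in 1 intron and on 1 strand. The ratio of Mir130b to Mir301b was 67.0 in replicate 1 (95% interval 60.2 to 74.8) and 79.5 in replicate 2 (71.3 to 89.0), a mean of 73.3 ± 8.84 (SD, n = 2). The counting intervals of the 2 libraries overlap. How efficiently each miRNA is captured by a library was not measured, so neither this nor any other ratio between genes need equal the ratio in the cells. Any reads that align to both Mir301b and Mir301 were left out, and how many there were is not known.

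In the miR-148/miR-152 family, Mir148a led with 1203 CPM in replicate 1 and 1076 CPM in replicate 2, from 4149 and 3803 counts. The mean was 1139.6 ± 90.1 CPM (SD, n = 2), rank 96, between Mir872 at 1165 CPM and Mir25 at 1096 CPM. Replicate 1 was the higher library for this gene.

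Mir148b, the Copz1 intron gene, had 399 CPM in replicate 1 and 428 CPM in replicate 2, from 1374 and 1514 counts, a mean of 413 ± 21.1 CPM (SD, n = 2) and rank 138. Mir340 at 414 CPM and Mir496a at 412 CPM stood next to it and within its SD. Mir152, the Copz2 intron gene, had 126 CPM in replicate 1 and 106 CPM in replicate 2, from 436 and 376 counts, a mean of 116 ± 14.2 CPM (SD, n = 2) and rank 205. Its neighbours were Mir331 at 117 CPM and Mir574 at 116 CPM. The miRNA of Copz1 was thus higher than that of Copz2 in both libraries.

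**Figure D2:**
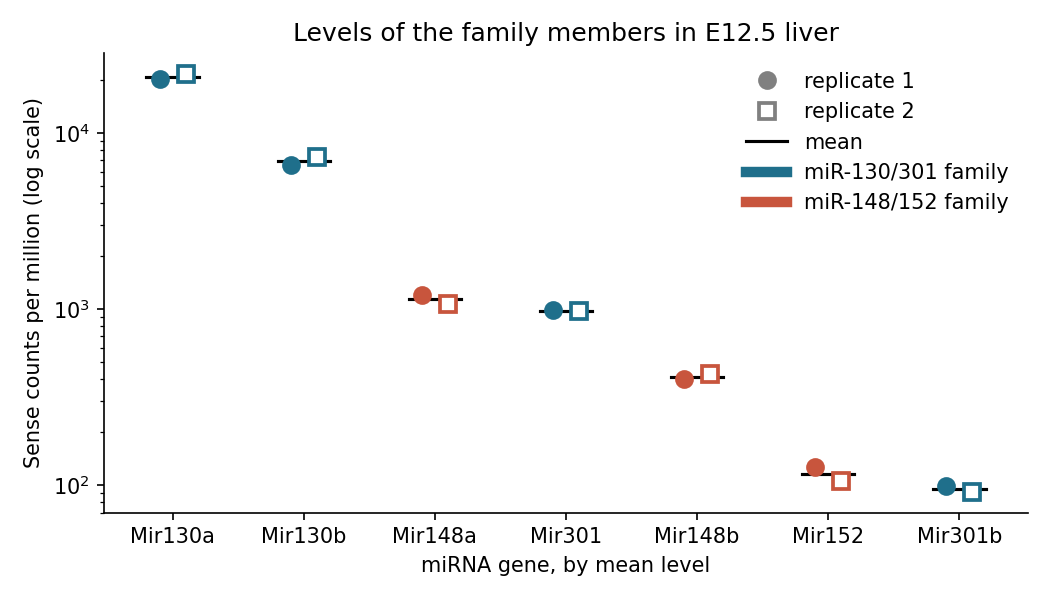
Sense counts per 1000000 (log axis) of the 7 genes in replicate 1 (filled circles) and replicate 2 (open squares), with their mean as a line; blue, miR-130/miR-301; red, miR-148/miR-152. The means run from 20894 CPM for Mir130a down to 95.3 CPM for Mir301b, and at each step the values of neighbouring genes do not overlap.

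The order of the 7 genes was the same in both libraries, and the means spanned 219-fold from Mir130a to Mir301b. At each of the 6 steps in this order the 2 values of the higher gene lay above the 2 values of the lower. The closest steps joined genes of different families. Mir148a exceeded Mir301 by 1.22 times in replicate 1 (95% interval 1.17 to 1.28) and by 1.10 times in replicate 2 (1.05 to 1.16). Mir152 exceeded Mir301b by 1.28 times in replicate 1 (1.11 to 1.48) and by 1.16 times in replicate 2 (0.995 to 1.35), so that in replicate 2 the order of Mir152 and Mir301b was within counting error.

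Summed over its 4 genes, the miR-130/miR-301 family held 2.78% of the miRNA gene counts in replicate 1 (95% interval 2.77 to 2.80) and 3.001% in replicate 2 (2.98 to 3.02), a mean of 2.89% ± 0.153 (SD, n = 2). The 3 genes of the miR-148/miR-152 family held 0.173% in replicate 1 (0.168 to 0.177) and 0.161% in replicate 2 (0.157 to 0.165), a mean of 0.167% ± 0.00833 (SD, n = 2). The first family exceeded the second by 16.1 times in replicate 1 and by 18.6 times in replicate 2. Intervals are exact Clopper-Pearson ones, and without molecular identifiers they cover counting error only.

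Each family took most of its counts from 1 gene without a host. Mir130a held 72.4% of the miR-130/miR-301 counts in replicate 1 (95% interval 72.1 to 72.7) and 72.1% in replicate 2 (71.8 to 72.4). Mir130b followed with 23.7% (23.5 to 24.01) and 24.4% (24.1 to 24.6), Mir301 with 3.53% (3.42 to 3.65) and 3.25% (3.14 to 3.36), and Mir301b with 0.354% and 0.306%. The intervals of the 2 libraries overlapped for Mir130a and did not for Mir130b and Mir301, so the make-up of this family also differed by more than counting error. The ratio of Mir130a to Mir130b was 3.05 in replicate 1 and 2.96 in replicate 2, and that of Mir130a to Mir301 was 20.5 (19.8 to 21.2) and 22.2 (21.5 to 23.0).

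In the miR-148/miR-152 family Mir148a held 69.6% in replicate 1 (95% interval 68.4 to 70.8) and 66.8% in replicate 2 (65.6 to 68.0). Mir148b held 23.1% (22.0 to 24.1) and 26.6% (25.4 to 27.8), and Mir152 held 7.32% and 6.60%. The intervals of the 2 libraries did not overlap for Mir148a or for Mir148b, which again is more than counting error. The ratio of Mir148a to Mir148b was 3.02 in replicate 1 (2.84 to 3.21) and 2.51 in replicate 2 (2.37 to 2.67). The ratio of Mir148b to Mir152 was 3.15 in replicate 1 (2.83 to 3.52) and 4.03 in replicate 2 (3.59 to 4.52). Mir148a to Mir152, with 9.52 and 10.1, differed less. These ratios are taken within a library and so do not depend on its scaling.

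**Figure D3:**
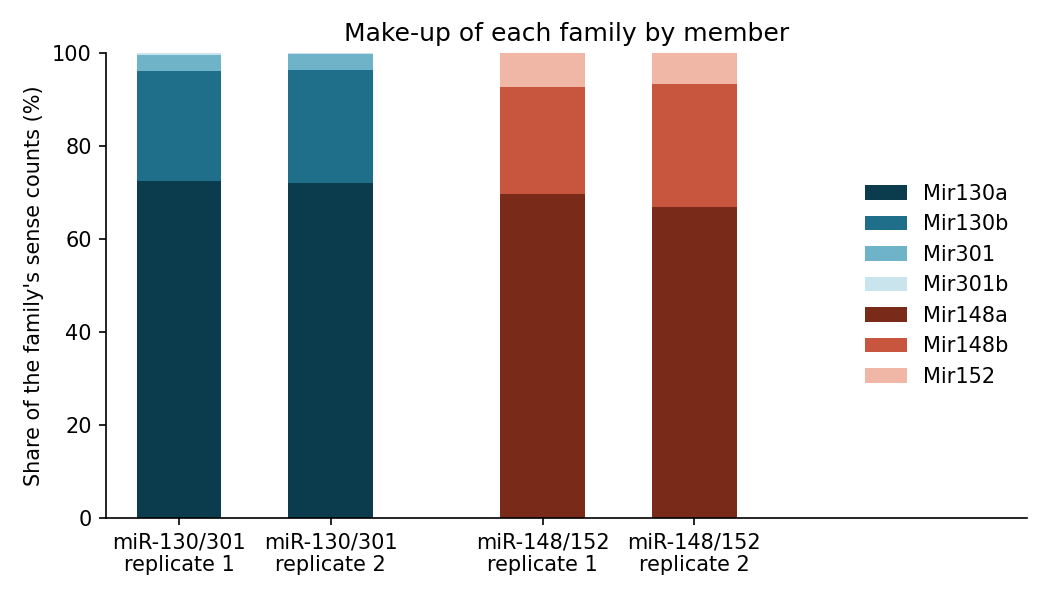
Share of each family's sense counts held by each member, in percent, as stacked bars for replicates 1 and 2. Mir130a holds 72.4% and 72.1% of the first family, and Mir148a holds 69.6% and 66.8% of the second.

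A share of this size for 1 gene was seen in other families too. When genes detected at 10 CPM in both libraries were grouped by any shared mature seed, 18 groups had at least 3 genes, and their leading gene held between 34.5% and 91.1% of the group's level, with a median of 61.2%. The groups led by Mir130a and Mir148a ranked 4 and 5 of the 18. Detected genes without a matching mature sequence in RefSeq were left out, such as Mirlet7a-2 from the group of Mirlet7a-1. Some groups are thus incomplete, and the shares, median and ranks hold only for the groups as formed. Other groups hold near-identical gene copies whose reads align to several places, so their shares can be off, and the difference from those groups was not tested.

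The other analysed miRNA genes with the full seed of either family in RefSeq had 0 uniquely aligned counts. Some with an overlapping seed did have counts. RefSeq lists 11 further genes whose mature miRNA holds, in its first 8 bases, a run of 6 bases from either family seed, and 10 of them are among the genes counted. Mir130c, Mir6341 and Mir6389 have the full miR-130/miR-301 seed, and each had 0 counts in both libraries, a limit of 0.870 CPM for each gene. Mir721 has that seed too and was not analysed here. Their mature sequences are shown because they extend the family by seed.
miR-130c: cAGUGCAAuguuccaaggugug
miR-6341: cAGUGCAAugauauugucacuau
miR-6389: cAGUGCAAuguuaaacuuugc
miR-721: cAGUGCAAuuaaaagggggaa
Among the mature sequences in RefSeq, no further listed gene had the full miR-148/miR-152 seed. Genes or arms without a mature sequence there, such as the 3p arm of Mir301b, could not be found this way.

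Of the genes with a partial match, Mir350 had 427 ± 134 CPM (SD, n = 2) and Mir19a had 201 ± 0.109 CPM. Mir19a is a member of the growth-promoting miR-17-92 cluster. Mir19b-1 was counted at 47.5 ± 0.378 CPM, Mir291b at 14.6 ± 3.90 CPM, Mir19b-2 at 7.46 ± 1.75 CPM and Mir1960 at 2.57 ± 0.765 CPM, while Mir6347 had 0 counts. Of the 10 genes counted, 4 reached 10 CPM in both libraries. As a gene, Mir350 stood at about the level of Mir148b. Its match is in miR-350-5p, and its counts join both arms, so the level of the matching arm is not known. Mir19b-1 and Mir19b-2 have the same mature 3p sequence, and reads that align to both were left out, so their values can be too low and are not ranked against Mir350.

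The 2 libraries were compared gene by gene, which is a comparison of 2 pools and not of conditions. A log2 ratio is replicate 2 over replicate 1 on library sizes scaled by TMM, which equalises the bulk of genes, and the two-sided exact binomial test asks whether a ratio exceeds counting error. In that test 4 of the 7 members differed, 3 higher and 1 lower in replicate 2, beside 40.3% of all 464 genes tested, 22.0% higher and 18.3% lower. Of the 289 genes with at least 100 counts over both libraries, as every member had, 179 differed, 97 higher and 82 lower. With 7 members, the count of 4 cannot be read as a property of the families.

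For Mir130a the log2 ratio was 0.16 (95% interval 0.14 to 0.17), higher in replicate 2, and Mir130b likewise rose, with 0.20 (0.17 to 0.23). Their adjusted p-values by the exact binomial test with Benjamini-Hochberg adjustment were 1.77e-94 and 1.41e-51. These follow from counts of 22793 to 76477 a library, and the changes were 1.12-fold and 1.15-fold. Mir148b was higher with 0.16 (0.05 to 0.27; adjusted p = 0.00955, exact binomial test), and Mir148a was lower with -0.11 (-0.17 to -0.04; adjusted p = 0.00300). The leading gene of the second family and its Copz1 partner thus had ratios of opposite sign.

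Mir301 did not pass, at 0.04 on the log2 scale (95% interval -0.03 to 0.11; adjusted p = 0.385, exact binomial test). Neither did Mir301b, with -0.05 (-0.27 to 0.18; adjusted p = 0.811), nor Mir152, with -0.19 (-0.40 to 0.01; adjusted p = 0.127). The interval of Mir301b, set by 340 and 325 counts, includes the 0.20 of its intron neighbour Mir130b. The ratio of Mir152 was about as far from 0 as that of Mir130b, and its interval was far wider.

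Which members passed depended in part on the scaling. With total counts as library sizes the log2 ratio of Mir148b was 0.10 and it did not pass (adjusted p = 0.118, exact binomial test; range 0.00684 to 1 over all alternatives), while Mir152 did, with -0.25 (adjusted p = 0.0376; range 0.0376 to 1). Over all genes that scaling called 77 higher and 101 lower, against 102 and 85 with TMM. Mir130a and Mir130b were higher and Mir148a was lower under each of the 3 scalings.

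The members' differences were of the size seen in other genes. Their median absolute log2 ratio was 0.16, beside 0.26 over all 464 genes tested and 0.18 over the 289 genes with at least 100 counts over both libraries. In edgeR's negative binomial exact test, which adds an assumed spread between samples, 0 of the 7 members passed at a coefficient of variation of 0.1, where 2.59% of all genes did. Also 0 passed at the coefficient of 0.162 estimated from these same 2 libraries, where 1.08% did, and 0 members had an unadjusted p under 0.05 in either. Each side of that test is 1 library, so its p-values order the genes and are no test of a biological difference.

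**Figure D4:**
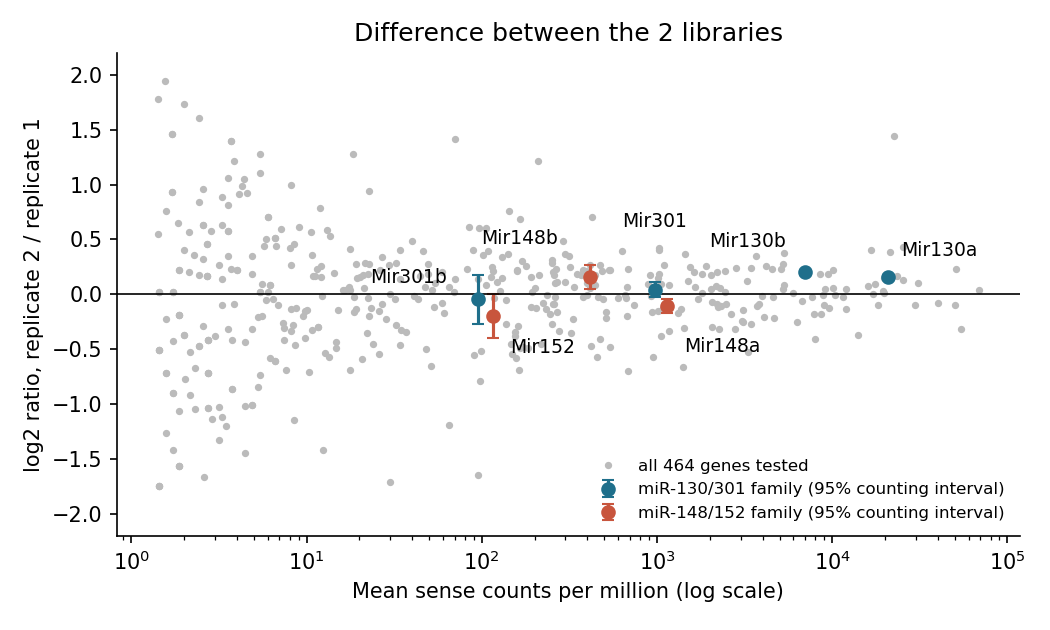
Log2 ratio of replicate 2 over replicate 1 (TMM-scaled) against mean counts per 1000000 on a log axis, for all 464 genes tested (grey) and for the members with their 95% counting interval (blue, miR-130/miR-301; red, miR-148/miR-152). The members lie between -0.19 for Mir152 and 0.20 for Mir130b, within the cloud of genes of like level.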

How the data were processed

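The authors deposited, for each library, raw read counts per miRNA gene on both strands, on the sense strand and on the opposite strand. The files hold 4 further lines for reads not assigned to a single gene. Per the file headers and lists, the build was mm10 and the annotation GENCODE M4; aligner, counter and versions: not given in the sources used here. Those 4 lines (unmapped, aligned to several places, in no gene, ambiguous) held 68.8% and 67.9% of the 11057424 and 11013976 reads in replicates 1 and 2 and were left out of library sizes. Reads aligned to several places alone were 28.8% and 31.1%.

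Sense counts were used. Identifiers were named and placed with GENCODE M21 on the same assembly, and sequences came from RefSeq. Genes with at least 10 counts over both libraries were tested (exact binomial test, two-sided) with library sizes scaled by TMM (edgeR 4.0.16), with Benjamini-Hochberg adjustment over all of them at 0.05. With 1 library a side, edgeR's quasi-likelihood test cannot be fitted. A log2 ratio has 0.5 counts added. Alternatives were total counts and DESeq2 1.42.0 size factors, other count filters, both strands, and edgeR's negative binomial exact test.

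Genes named beyond the members were those with a related seed and those next to a member in rank. Others are named where a shared sequence bears on a count. Marker genes were Mir122 and Mir192 (hepatocyte), Mir451a, Mir144 and Mir486 (erythroid), Mir126a (endothelial), and lists for leukocytes, mesenchyme, epithelium, neurons and muscle. In replicates 1 and 2 these lists summed to 68816 and 68165 CPM (endothelial), 7168 and 5813 (leukocyte), 23535 and 25434 (mesenchyme), 3409 and 2116 (epithelium), 1.74 and 1.13 (neuron) and 168 and 389 (muscle). Members and lists were chosen with earlier results of these data known.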

Additional observations from a re-analysis of the deposited data

Results flagged for a closer look

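Mir130a had reads on its opposite strand, where no gene is annotated, and these are outside the sense counts used. There were 34 such counts in replicate 1 and 37 in replicate 2, above the 3 that a count of 0 allows, or 0.0489% and 0.0484% of its sense counts. Of the other members, Mir152 had 1 opposite-strand count in replicate 1, and the rest had 0 in both libraries.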

How the results depend on the processing

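The family shares depended on the denominator. With counts of both strands and their own total, the miR-130/miR-301 family held 2.62% and the miR-148/miR-152 family 0.151%, and as a share of every read, gene-bound or not, they held 0.916% and 0.0528%. Leaving Mir451a out of the denominator moved neither share by more than its SD. The share of a family held by its highest gene, and the 6 ratios between members of a family, moved by less than their SD with both strands. With at most 37 opposite-strand counts for a member in a library, they could hardly move, so this is no check of stability. With 2 replicates, leaving out 1 gives the value of the other, so it says nothing about stability. The 4 members and 187 genes called by the exact binomial test became 0 and 12 in edgeR's negative binomial test at a coefficient of variation of 0.1, and 0 and 5 at the estimated one, since that test adds a spread beyond counting. The log2 ratio of Mir301, which did not pass, was -0.014 with total counts. At 100 CPM in both libraries 6 of the 7 members were detected, Mir301b falling short. No paired analysis was possible because there is a single group. Depth limits Mir301b and Mir152 most, with 325 to 436 counts a library.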
